A study of Homo sapiens with 43 samples.

Results

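The genes described here are 39 genes of DNA replication and the S phase of the cell cycle, among the 20052 genes whose reads were counted in HMC3 cells treated with glucocorticoids. HMC3 is an established human line sold as a model of microglia, the macrophages of the brain. The genes were taken from a named list, drawn up with earlier results of these data known, and all 39 passed the filter on low counts, which left 16816 genes to test. They comprise 11 genes of replication licensing, 6 of origin firing and the fork helicase, 12 of the polymerases, the sliding clamp and the maturation of new strands, 3 of nucleotide supply, 4 of histone supply and chromatin, and 3 regulators of entry into S phase.

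Flasks of HMC3 cells at passage 8 received dexamethasone at 1 or 0.01 µM, hydrocortisone at 10 or 0.01 µM, ethanol at the amount that goes with each of these doses (the vehicle), or plain medium, and RNA was taken on day 3. On that day the cells of each flask were seeded again without hormone, and RNA was taken after 3 days of washout, on day 6. Day 3 has 3 libraries for each of the 4 hormone doses, for each of their 4 vehicles and for untreated medium. Day 6 has 3 libraries for each hormone dose but 1 for each vehicle, so the 4 vehicle libraries served jointly as the day 6 reference for all 4 hormone groups, which therefore share it; untreated cells of day 6 were not analysed here. The comparisons ask which genes a glucocorticoid moves beyond its vehicle, at which dose, and what remains after washout.

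Before a cell divides it copies its genome once. In G1 phase the origin recognition complex, CDC6 and CDT1 load the MCM2 to MCM7 helicase onto origins, a step called licensing that geminin (GMNN) blocks later in the cycle; in S phase CDC45 and the GINS complex turn the loaded helicase into a moving fork. D-type cyclins with their kinases release E2F factors from the retinoblastoma protein, and E2F drives most of these genes, while the inhibitor p21 (CDKN1A) holds the cyclin-dependent kinases back. Glucocorticoids act through a nuclear receptor, and in several cell types they lower cyclin D1 and slow division.

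Counts per library ran from 7638840 to 24426643, and ribosomal RNA repeat genes took 9.897% to 94.86% of them, which left 1083395 to 17542023 other counts. In 7 libraries, each of a different group, the ribosomal share was over 75%. The library with the largest share, replicate 3 of dexamethasone 0.01 µM on day 3, stands apart for these genes too, with 42.7 CPM (reads scaled to a common library size) of CDT1, the highest of all 43 libraries, and 24.5 CPM of RFC2, the lowest. The receptor targets TSC22D3 and FKBP5 moved with the labels, with a log2 rise of 3.99 (SE 0.27) and 1.44 (SE 0.13) at dexamethasone 1 µM on day 3 and changes of 0.11 (SE 0.24) and -0.11 (SE 0.13) at hydrocortisone 0.01 µM. The microglial markers CSF1R, TREM2 and CD68 had medians of 0.273, 0.248 and 0.112 CPM, whereas the mesenchymal markers COL1A1, VIM and FN1 had medians of 1680, 1630 and 16700 CPM. Replicates are flasks of 1 line, so the tests rest on the spread from flask to flask.

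Promoters of these genes often hold the letters that E2F binds. RefSeq (GRCh38.p14) gave a window from 250 bases before to 50 bases after a start for 33 of the 39 genes. The 4 E2F forms searched were TTTCCCGC, TTTGGCGC, TTTCGCGC and TTTGCCGC, on both strands, and at least 1 of them stood in a window of 21 of the 33 genes (63.6%), against 3.99% of the 27305 genes with a window. The CCAAT box stood in 57.6% of the 33 genes and 39.7% of all genes. The letters AGAACA, one arm of a glucocorticoid response element, stood in 15.2% and 17.5%, and the CHR element of G2/M genes, TTTGAA, in 3.03% and 18.2%. These are matches of letters, on either strand, and no measure of binding.

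The stretches printed here are those of GINS1, the only gene called as higher in a hormone group, and of the 8 genes that fell at the higher dose of dexamethasone, because each of them holds an E2F form. Capitals mark the E2F forms, which may read on the opposite strand and may overlap. MCM6 is shown with 160 bases before its start because it carries 2 copies of TTTGGCGC, each overlapping a TTTCGCGC on the opposite strand; the others are 30 bases around the first match in the window. RFC2 and RFC4, named below, held none in their windows. The stretches lie at chr20:25407667-25407696, plus strand (GINS1), chr14:49688201-49688230, minus strand (POLE2), chr13:33818083-33818112, plus strand (RFC3), chr2:173354796-173354825, plus strand (CDCA7), chr19:4909476-4909505, plus strand (UHRF1), chr17:40287875-40287904, plus strand (CDC6), chr7:100101566-100101595, minus strand (MCM7), chr1:241848197-241848226, plus strand (EXO1) and chr2:135876444-135876603, minus strand (MCM6).
GINS1: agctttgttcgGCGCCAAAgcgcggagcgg
POLE2: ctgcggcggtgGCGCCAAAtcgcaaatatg
RFC3: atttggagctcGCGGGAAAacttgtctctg
CDCA7: tgtgtcccaacGCGGGAAAgacagcccgag
UHRF1: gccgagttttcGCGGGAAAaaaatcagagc
CDC6: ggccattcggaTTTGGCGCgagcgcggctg
MCM7: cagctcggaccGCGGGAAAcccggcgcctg
EXO1: aaaggtcagccTTTCGCGCgctgtgtaggc
MCM6: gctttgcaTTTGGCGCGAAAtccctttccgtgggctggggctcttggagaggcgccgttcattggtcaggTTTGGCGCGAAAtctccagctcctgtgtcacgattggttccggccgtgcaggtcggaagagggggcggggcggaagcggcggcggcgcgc

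All 39 genes were expressed in every library. Per kilobase of exon, PCNA, the sliding clamp that holds polymerases on DNA, was the most abundant, with a median of 76 CPM per kb over the 43 libraries. RRM1, the large subunit of ribonucleotide reductase, followed at 47.2 CPM per kb, then the helicase subunits MCM7 and MCM3 at 46.2 and 42.4 and the flap endonuclease FEN1 at 35.5. The lowest medians were those of GINS3 at 2.81 CPM per kb and of the repressor E2F8 at 2.05. By this measure subunits of 1 complex did not share a level. Among the MCM2 to MCM7 subunits the medians ran from 12.4 CPM per kb for MCM6 to 46.2 for MCM7. MCM7 shares exon sequence with AP4M1 on the opposite strand. The length used is that of all annotated exons of a gene, not of the transcripts expressed, so the order of genes is approximate. Levels varied little from library to library. The coefficient of variation over all 43 libraries, treatments and days included, ran from 4.44% for MCM4 to 22.9% for TYMS, and CDT1 came next to TYMS at 15.4%.

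**Figure D1:**
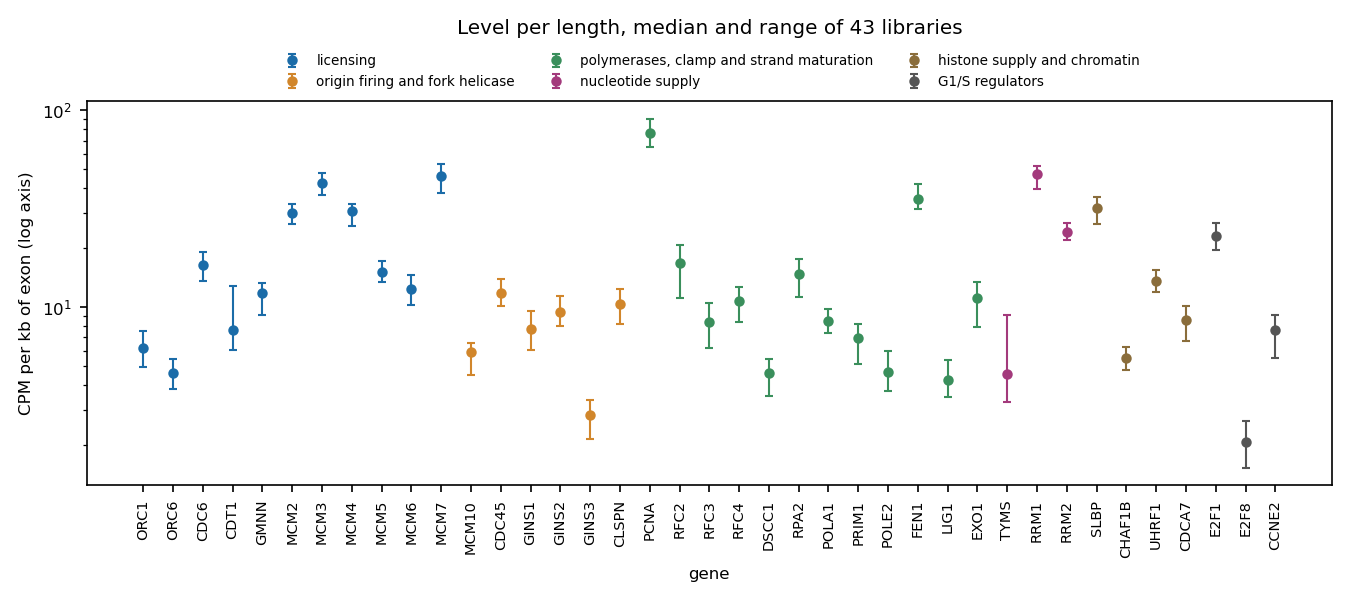
Level of each of the 39 genes as CPM per kilobase of exon on a log axis, with points at the median and bars over the range of the 43 libraries, coloured by role. PCNA lies highest at 76 and E2F8 lowest at 2.05, and the bars of TYMS and CDT1 are the longest.

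No effect of the vehicle alone was detected. Between the 4 vehicle groups and untreated medium on day 3, none of the 39 passed the threshold, an adjusted p of 0.05 by the quasi-likelihood test of edgeR over all genes. None of the 16816 genes did (0%; DESeq2 also called 0), and 2 of the 39 had an unadjusted p under 0.05, as 5.36% of all genes had. The 95% interval of the change lay within 0.5 on the log2 scale on either side of 0 for 38 of the 39 genes, TYMS being the exception. Between vehicle libraries of day 6 and day 3 none of the 39 passed either, against 0.505% of all genes, and 6 had an unadjusted p under 0.05, against 11% of all genes. The smallest adjusted p was that of MCM6 (0.114), whose log2 difference was -0.19 (SE 0.06).

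Dexamethasone at 1 µM lowered 8 of the 39 genes on day 3 and raised none. The 8 were the polymerase epsilon subunit POLE2, the chromatin remodelling cofactor CDCA7, the exonuclease EXO1, the helicase subunits MCM6 and MCM7, the helicase loader CDC6, the clamp loader subunit RFC3 and UHRF1, which guides DNA methylation to new strands. Their log2 changes ran from -0.41 to -0.19, so the falls were small. Over all genes 22.6% were called, 12.3% as lower, and the share called among the 39 is close to the first of these. The median change of the 39 genes was -0.09, against 0.02 over all genes, and 28 of the 39 lay below 0. By role, 3 of 11 licensing genes, 3 of 12 polymerase, clamp and strand maturation genes and 2 of 4 histone and chromatin genes were called lower. None of the 6 genes of origin firing, the 3 of nucleotide supply or the 3 regulators was called. Among these uncalled genes GINS2, MCM10 and RRM1 changed by -0.21, -0.19 and -0.16, while 3 of the 6, 2 of the 3 and 2 of the 3 lay above 0. Differences between roles were not tested. Of the 12 polymerase, clamp and maturation genes 11 lay below 0, with a median of -0.17. In bulk RNA, fewer cells in S phase and less of these RNAs in each cell cannot be told apart. The summed level of 7 mesenchymal markers was 21700 to 23800 CPM in these treated libraries and 17300 to 18700 CPM in their vehicle. FN1 makes up most of this sum, and of the 7 markers 2 were called higher and 2 lower, with log2 changes from -0.62 to 0.42. The sum of the astrocyte markers ALDH1L1 and SLC1A3 was 12.8 to 16.5 against 6.86 to 7.59 CPM, with 1 called higher (2.04) and 1 lower (-0.69), while GFAP and AQP4 were not in the table used here. That of 3 endothelial markers was 1.57 to 1.88 against 0.73 to 1.1 CPM. The part of any of these in the falls was not tested.

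POLE2 belongs to the polymerase that extends the leading strand, and its level at dexamethasone 1 µM was 11.5, 11.4 and 11.1 CPM, against 14.1, 16 and 15 CPM in its vehicle. The groups do not overlap, and the 3 treated libraries lie below every other library of day 3. The log2 change was -0.41 (SE 0.10, adjusted p = 0.00118), a level 1.33-fold lower. Against untreated medium, where POLE2 stood at 13.7, 13.6 and 13 CPM, the change was -0.25 and no longer passed (adjusted p = 0.059).

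CDCA7, which helps the remodeller HELLS open methylated chromatin, stood at 33, 28.3 and 26.6 CPM with dexamethasone 1 µM and at 37, 39.6 and 37.1 CPM in its vehicle. All 3 treated libraries lie below the vehicle libraries, and its log2 change of -0.37 (SE 0.09, adjusted p = 0.0013) kept its call in all 15 alternative analyses of this comparison, with adjusted p-values of 0.00029 to 0.0231. RFC3 has the same order, with 19.2, 19.4 and 20.2 CPM in treated cells and 22.2, 23.3 and 24.6 CPM in vehicle, and changed by -0.25 (SE 0.09, adjusted p = 0.0407). MCM6 stood at 50.9, 45.7 and 42.9 CPM against 56, 55.3 and 52.3 CPM, again without overlap, and changed by -0.23 (SE 0.08, adjusted p = 0.0261).

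EXO1, which resects DNA ends and mismatched strands, stood at 42.1, 40.2 and 42.6 CPM against 55.2, 49.4 and 46.1 CPM and changed by -0.27 (SE 0.09, adjusted p = 0.0238). CDC6 stood at 85.5, 86.2 and 86 CPM against 94.8, 99.8 and 102 CPM and changed by -0.20 (SE 0.07, adjusted p = 0.0323). Neither pair of groups overlaps. MCM7 stood at 172, 188 and 191 CPM against 190, 215 and 227 CPM, groups that do overlap, and also changed by -0.20 (SE 0.07, adjusted p = 0.0417); it shares exon sequence with AP4M1 on the opposite strand. The other helicase subunits, MCM2, MCM3, MCM4 and MCM5, showed changes of -0.02, -0.06, -0.12 and 0.03, none past the threshold. The clamp PCNA stood at 116, 122 and 107 CPM against 112, 130 and 124 CPM, with overlap, and changed by -0.09 (95% interval -0.27 to 0.09, adjusted p = 0.532). UHRF1, at 63.3, 66.1 and 62.5 CPM against 72.4, 74.4 and 72.4 CPM, was nearest to the threshold inside it (-0.19, adjusted p = 0.0492), and RRM1 nearest outside (-0.16, adjusted p = 0.0563). LIG1, the ligase that seals lagging-strand fragments, was the only gene of the 39 whose treated libraries all lay above the vehicle ones, with 29.5, 30.7 and 32.5 CPM against 26.6, 25.8 and 28.3 CPM, and its change of 0.20 (SE 0.09) did not pass (adjusted p = 0.106).

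In all, 15 of the 39 genes lay without overlap below their vehicle and 1 above, where 19.2% and 19.1% of all genes did.

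The number called moved with single libraries. It was 4, 2 and 4 without replicates 2, 3 and 4 of dexamethasone 1 µM, and 6, 3 and 4 without replicates 1, 2 and 4 of the vehicle. POLE2 and CDCA7 were called in each of these. Over all 15 alternatives EXO1 kept its call in 11, MCM7 in 10, MCM6 in 9, CDC6 and RFC3 in 8 and UHRF1 in 4. Against untreated medium 4 genes were lower, CDCA7, GINS2, MCM7 and RFC3, where 11.6% of all genes were.

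**Figure D2:**
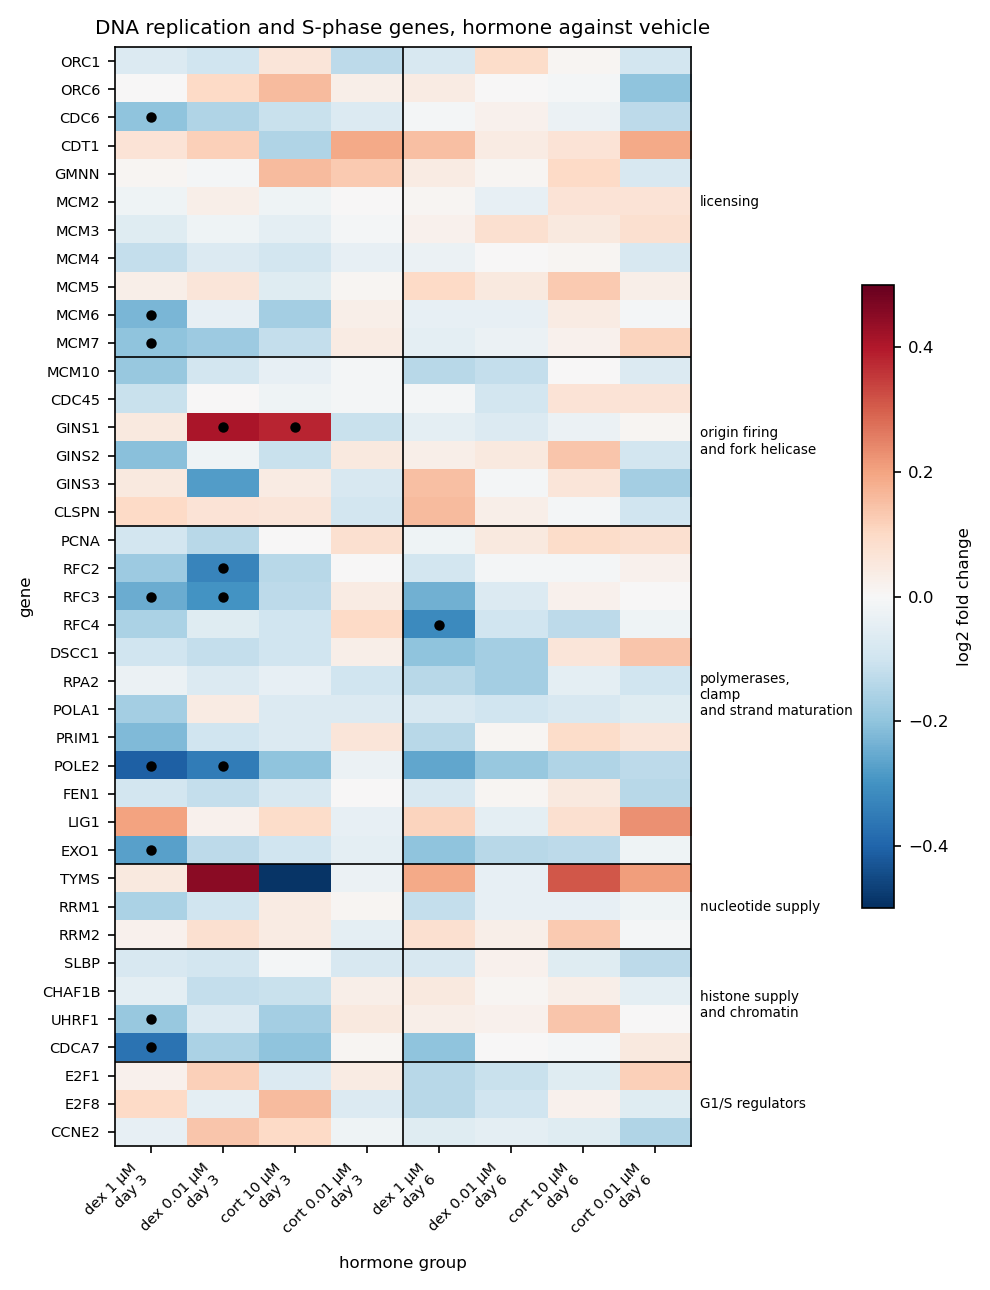
Log2 fold change of each of the 39 genes (rows, by role) in the 8 hormone groups (columns), against the vehicle of the same dose on day 3 and against the 4 vehicle libraries on day 6; dots mark an adjusted p under 0.05. The column of dexamethasone 1 µM on day 3 has 8 dots, all lower, GINS1 is the only gene with a dot for a rise, and 1 dot, RFC4, stands on day 6.

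At 0.01 µM dexamethasone 1 of the 39 genes rose on day 3 (GINS1) and 3 fell (POLE2, RFC2 and RFC3), all 3 from the group of polymerase and clamp genes. Of all genes 14% were called, 6.14% higher and 7.84% lower. POLE2 stood at 12.6, 14.3 and 11.8 CPM against 17.7, 16.3 and 15.5 CPM in its vehicle (log2 change -0.35, SE 0.10, adjusted p = 0.00853). RFC3 stood at 20.5, 20 and 17.7 CPM against 22.3, 24.2 and 25.2 CPM (-0.30, SE 0.09, adjusted p = 0.0222). RFC2, another clamp loader subunit, stood at 33.7, 35.9 and 24.5 CPM against 39.3, 39.2 and 40.1 CPM (-0.33, SE 0.09, adjusted p = 0.0101). Of the 39 genes 6 lay below their vehicle without overlap and 3 above, where 2089 and 1859 of the 16816 genes did. The groups do not overlap for any of the 3 genes named here, POLE2, RFC3 and RFC2. The lowest value of each belongs to replicate 3, the library with 94.86% ribosomal RNA, and without it GINS1 alone was called, with RFC2 at -0.18 (adjusted p = 0.192) and POLE2 at -0.30 (adjusted p = 0.0638). Without any of the 7 libraries of over 75% ribosomal RNA, too, only GINS1 was called, with RFC3 at -0.30 (adjusted p = 0.0774). Against untreated medium POLE2 changed by -0.06 (adjusted p = 0.756), while RFC2 and RFC3 passed at -0.39 and -0.34 (adjusted p = 0.00206 and 0.0083).

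Without replicate 1 or replicate 2 of dexamethasone 0.01 µM the number called was 6, and TYMS, thymidylate synthase, which makes the thymidine precursor for DNA, was then among them. Its 3 treated values were 11.8, 11.7 and 21.1 CPM, the high one again from replicate 3, against 10.6, 11.4 and 10.3 CPM in vehicle. The groups do not overlap, but the change of 0.45 (SE 0.19) did not pass with all libraries (adjusted p = 0.111). TYMS shares exons with the opposite-strand genes TYMSOS and ENOSF1, so that without a known strand setting for the counts its reads and theirs cannot be told apart. The summed level of the 7 mesenchymal markers was 23900 to 24900 CPM in these treated libraries and 17800 to 22200 CPM in their vehicle, with 1 of the 7 called higher and 2 lower. The 2 astrocyte markers summed to 12 to 14 against 7.72 to 9.59 CPM, with 1 called higher, and the endothelial sums of 0.335 to 1.23 and 0.736 to 1.48 CPM overlapped. The part of any of these in the results at this dose was not tested.

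The 1 gene of the 39 that passed as higher in any hormone group was GINS1, the PSF1 subunit of the GINS complex, which joins CDC45 and the MCM ring to form the working helicase. At dexamethasone 0.01 µM it stood at 36.7, 37.2 and 37.8 CPM, against 27, 28.4 and 28.6 CPM in its vehicle. At hydrocortisone 10 µM it stood at 38.1, 35.4 and 38.7 CPM, against 24.5, 31.4 and 30.6 CPM. Neither pair of groups overlaps. Of the 37 other libraries, 1 reaches into the range of these 6, a library of dexamethasone 1 µM at 35.5 CPM. The log2 changes were 0.41 (SE 0.08, adjusted p = 0.000303, 1.33-fold higher) and 0.38 (SE 0.08, adjusted p = 0.00088, 1.3-fold higher).

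The other doses did not give this rise. At dexamethasone 1 µM GINS1 stood at 30.2, 35.5 and 32.7 CPM against 30.8, 33.9 and 30.2 CPM in vehicle, with a change of 0.05 (SE 0.08, 95% interval -0.11 to 0.22). At hydrocortisone 0.01 µM it stood at 28.5, 30.9 and 28.7 CPM against 32.1, 31 and 32 CPM, with a change of -0.11 (SE 0.08, adjusted p = 1). Untreated cells had 31.9, 30.4 and 34.1 CPM, mostly above both vehicles of the groups with a rise. Against them the changes at dexamethasone 0.01 µM and hydrocortisone 10 µM were 0.21 and 0.22 and did not pass (adjusted p = 0.0713 and 0.0547). Against the mean of all 4 vehicle groups they were 0.31 and 0.32 and passed (adjusted p = 0.000252 and 0.000125).

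The other subunits of the complex in the list did not pass. GINS2 changed by -0.02 (SE 0.09) at dexamethasone 0.01 µM and by -0.11 (SE 0.09) at hydrocortisone 10 µM, and GINS3 by -0.28 (SE 0.12) and 0.04 (SE 0.12), none past the threshold. CDC45, their partner at the fork, changed by -0.00 and -0.02 (SE 0.08 each). Only GINS1 of these was called in either comparison, and the differences between the subunits were not tested.

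**Figure D3:**
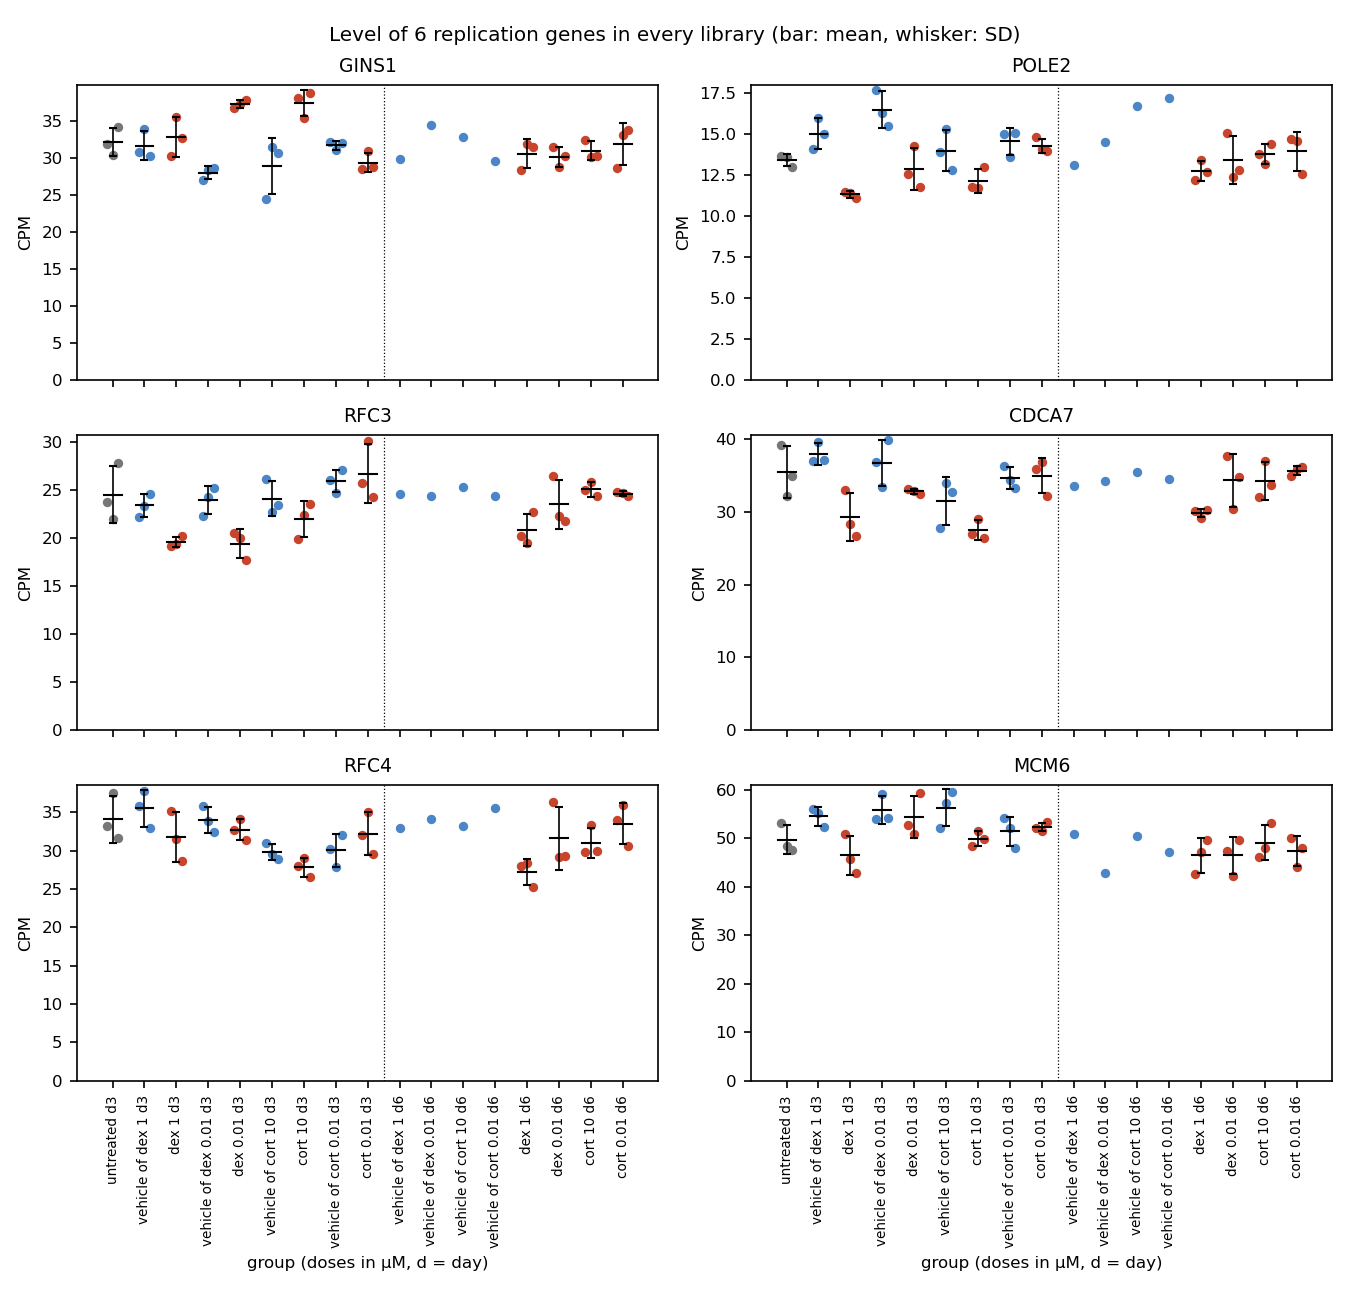
CPM of GINS1, POLE2, RFC3, CDCA7, RFC4 and MCM6 in every library (points: grey untreated, blue vehicle, red hormone), with the mean and SD of each group of 3, day 3 left and day 6 right of the dotted line. GINS1 is high in the 3 libraries each of dexamethasone 0.01 µM and hydrocortisone 10 µM on day 3, and POLE2 lies lowest in dexamethasone 1 µM on day 3.

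At hydrocortisone 10 µM on day 3 GINS1 and no other of the 39 genes was called, where 13.1% of all genes were called, 5.57% higher and 7.51% lower. Without overlap with their vehicle, 6 of the 39 genes lay below it and 2 above, where 2346 and 2523 of the 16816 genes did. CDCA7, UHRF1 and MCM6, which fell at dexamethasone 1 µM, showed changes of -0.20 (SE 0.09), -0.17 (SE 0.07) and -0.17 (SE 0.08), with adjusted p-values of 0.137, 0.116 and 0.14. The count depends on the reference. Against the mean of all 4 vehicle groups 9 genes passed, where 24.2% of all genes did and 12.4% were lower: GINS1 was higher and CDC6, CDCA7, CHAF1B, MCM7, POLE2, PRIM1, RFC2 and RFC4 were lower, by log2 values from -0.35 for CDCA7 (adjusted p = 0.00013) to -0.17 for CHAF1B (adjusted p = 0.0272). Against untreated medium 7 passed, all lower, where 9.35% of all genes were lower. For CDCA7 the treated libraries had 27, 29 and 26.4 CPM, their own vehicle 27.7, 33.9 and 32.7 CPM, and untreated cells 39.2, 32.1 and 34.9 CPM. The low vehicle library, replicate 1, is 1 of those with over 75% ribosomal RNA; without it CDCA7 was called beside GINS1. The number called was 2 without treated replicate 2 and without vehicle replicate 1 or 2, and 3 without vehicle replicate 3. Shares of all genes called in these smaller fits are not given, so these counts show nothing particular to the 39 genes. The 7 mesenchymal markers summed to 21300 to 22500 CPM in the treated libraries and 17100 to 22000 CPM in the vehicle, with overlap, and 1 of them was called higher and 2 lower. The 2 astrocyte markers summed to 15.1 to 16.3 against 6.84 to 8.08 CPM and the 3 endothelial markers to 1.13 to 1.86 against 0.295 to 0.95 CPM, both without overlap and with 1 marker called higher in each. Their part in the results at this dose was not tested.

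TYMS had the largest change of the 39 genes here, -0.49 (SE 0.19), and did not pass (adjusted p = 0.0791). Its own vehicle had 13.9, 12.7 and 22.5 CPM, the treated cells 12.1, 11.7 and 11.2 CPM and untreated cells 11.2, 11.4 and 9.13 CPM. The groups do not overlap, and the 22.5 CPM of vehicle replicate 3 is the highest value of TYMS in any library. Without that library the change was -0.18 (adjusted p = 0.567), against all vehicle groups -0.08 (adjusted p = 0.755) and against untreated medium 0.14. Without vehicle replicate 2, which leaves the high library in, it was -0.64 and passed (adjusted p = 0.0268). With the high library in, it also passed without ribosomal RNA genes, with DESeq2, and without the libraries over 75% ribosomal (-0.56, -0.54 and -0.60, adjusted p = 0.0287, 0.0299 and 0.0244).

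At hydrocortisone 0.01 µM none of the 39 genes passed. No gene of the 16816 was called on day 3 (0%, edgeR), 397 (2.36%) had an unadjusted p under 0.05 and DESeq2 called 1, and none of the 39 had an unadjusted p under 0.05. The changes of the 39 ran from -0.13 to 0.19, and the 95% interval lay within 0.5 on either side of 0 for all but CDT1, whose upper bound was 0.50.

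Between the doses, GINS1 was the gene of the 39 that differed. For hydrocortisone the vehicle-corrected difference of 10 minus 0.01 µM was 0.49 (SE 0.12, adjusted p = 0.00613), where 4.09% of all genes differed, 1.73% as higher, and none of the other 38 passed. For dexamethasone none of the 39 passed, where 0.0476% of all genes did, and GINS1 was the 1 gene of the 39 with an unadjusted p under 0.05, as 6.45% of all genes had, its difference of 1 minus 0.01 µM being -0.36 (SE 0.12, adjusted p = 0.476). The interval of that difference, -0.59 to -0.12, excludes 0 before adjustment over all genes, so the doses of dexamethasone are not shown to act alike on GINS1.

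Dexamethasone is hydrocortisone with an added fluorine, an added methyl group and a further double bond in ring A. The hormones met at 1 matched dose, 0.01 µM, on 2 days. On day 3 GINS1 differed between them by 0.52 (SE 0.12, adjusted p = 0.00307) after correction for the vehicles, higher with dexamethasone, where 4.98% of all genes differed, 2.07% as higher. Its libraries lay above those of the vehicle without overlap for dexamethasone and below them without overlap for hydrocortisone. At hydrocortisone 0.01 µM 1 of the 39 genes lay below its vehicle without overlap and 2 above, where 790 and 757 of the 16816 genes did. RFC3 (-0.34, SE 0.13), POLE2 (-0.33, SE 0.14) and RFC2 (-0.33, SE 0.13) were lower with dexamethasone without passing (adjusted p = 0.14, 0.183 and 0.158). Without replicate 2 of dexamethasone 0.01 µM RFC2 passed too. For 31 of the 39 genes the 95% interval of the difference lay within 0.5 on the log2 scale. On day 6 none of the 39 passed, where 0.773% of all genes did, 5 had an unadjusted p under 0.05, where 11.3% of all genes had, and the interval lay within 0.5 for 37. At the higher doses, 1 µM of dexamethasone and 10 µM of hydrocortisone, the doses differ. Each against its own vehicle, the changes of POLE2 were -0.41 and -0.20 and those of GINS1 0.05 and 0.38. Differences between these changes were not tested. POLE2 itself stood at 11.5, 11.4 and 11.1 CPM with dexamethasone 1 µM and at 11.8, 11.7 and 13 CPM with hydrocortisone 10 µM.

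After washout 1 of the 39 genes was called in any group. At dexamethasone 1 µM on day 6, 10.2% of all genes were called, 5.04% as lower, and of the 39 only RFC4 was. It is a subunit of the clamp loader and stood at 28, 28.4 and 25.2 CPM against 32.9, 34.1, 33.2 and 35.5 CPM in the 4 vehicle libraries. The groups do not overlap, and the log2 change was -0.32 (SE 0.08, adjusted p = 0.00854). In this comparison 5 of the 39 genes lay below the vehicle libraries without overlap and 0 above, where 1820 and 1579 of the 16816 genes did. RFC4 had not been called on day 3 (-0.16, SE 0.09, adjusted p = 0.207) against its own vehicle. Against all 4 vehicle groups of day 3 its change was -0.02 (adjusted p = 0.879), and the effect of day 6 minus that effect was -0.30 (SE 0.11, adjusted p = 0.194). Without replicate 4 of the treated group RFC4 changed by -0.26 and did not pass (adjusted p = 0.0829), and RFC3 passed instead. Against the vehicle library of its own dose alone, which has 1 value, none of the 39 was called. RFC4 shares 21 bases of exon with EIF4A2 on the opposite strand.

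POLE2 and RFC3 kept the direction of day 3 at dexamethasone 1 µM without passing on day 6, with changes of -0.26 (SE 0.09, adjusted p = 0.0558) and -0.24 (SE 0.09, adjusted p = 0.0621). POLE2 passed as well, making 2 genes called, without the vehicle library of dexamethasone 1 µM and without that of dexamethasone 0.01 µM. None of the 39 genes was called on day 6 at dexamethasone 0.01 µM, hydrocortisone 10 µM or hydrocortisone 0.01 µM, where 0.0833%, 0.892% and 0.0892% of all genes were, and 1, 2 and 2 of the 39 had an unadjusted p under 0.05, where 7.1%, 11.2% and 9.72% of all genes had.

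GINS1 was near the level of vehicle after washout. On day 6 it stood at 31.5, 28.8 and 30.2 CPM after dexamethasone 0.01 µM and at 32.4, 30.1 and 30.3 CPM after hydrocortisone 10 µM, within the 29.6 to 34.4 CPM of the 4 vehicle libraries but for 28.8. The effect of day 6 minus that of day 3, each against all vehicle groups of its day, was -0.38 (SE 0.10, adjusted p = 0.0138) for dexamethasone 0.01 µM and -0.35 (SE 0.10, adjusted p = 0.0233) for hydrocortisone 10 µM, where 6.54% and 6.97% of all genes differed, 2.53% and 2.66% as lower. Without replicate 2 of dexamethasone 0.01 µM on day 6 the first was -0.34 (adjusted p = 0.0507), and without replicate 2 of day 3 RFC2 passed beside GINS1.

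For hydrocortisone 10 µM, CDCA7 and UHRF1 moved the other way over washout, by 0.35 (SE 0.11, adjusted p = 0.037) and 0.28 (SE 0.09, adjusted p = 0.0446), where 4.31% of all genes were higher. CDCA7 went from 27, 29 and 26.4 CPM on day 3 to 32, 37 and 33.6 CPM on day 6, without overlap. All 3 calls of this comparison were lost without replicate 4 of hydrocortisone 10 µM on day 3, without replicate 3 or 4 of it on day 6, and without the day 6 vehicle library of dexamethasone 0.01 µM, and 1 was left without replicate 2 of day 3. Over the 29 alternatives GINS1 kept its call in 24, CDCA7 in 22 and UHRF1 in 15. None of the 39 genes passed for washout from dexamethasone 1 µM or hydrocortisone 0.01 µM, where 1.69% and 0.00595% of all genes did, and 2 and 1 of the 39 had an unadjusted p under 0.05, where 11.5% and 5.36% of all genes had.

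CCND1 and CDKN1A, regulators of G1, which precedes S phase, had larger changes than any of the 39 genes at both doses of dexamethasone and at hydrocortisone 10 µM on day 3. They were picked from 29 listed G1 genes for small p-values in these same comparisons, so their larger changes follow in part from that choice. The median change of the 29 genes at dexamethasone 1 µM was 0.01. CCND1, cyclin D1, stood at 52.9, 62 and 62.3 CPM with dexamethasone 1 µM and at 120, 119 and 145 CPM in its vehicle. The groups lie wide apart, and the log2 change of CCND1 was -1.12 (SE 0.10, adjusted p = 2.48e-12), a level 2.17-fold lower. It fell by 1.1 (SE 0.10, adjusted p = 8.91e-12) at dexamethasone 0.01 µM and by 1.15 (SE 0.10, adjusted p = 2.32e-12) at hydrocortisone 10 µM, and it stood at 151, 146 and 150 CPM at hydrocortisone 0.01 µM against 165, 170 and 156 CPM in vehicle, below it without passing (adjusted p = 1).

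CDKN1A, the kinase inhibitor p21, moved in the opposite direction. It stood at 110, 115 and 101 CPM with dexamethasone 1 µM against 59.7, 52 and 56 CPM, without overlap, and rose by 0.96 (SE 0.11, adjusted p = 1.93e-09). The rises at dexamethasone 0.01 µM and hydrocortisone 10 µM were 0.58 and 0.64 (SE 0.11 each, adjusted p = 7.55e-05 and 1.77e-05). At hydrocortisone 10 µM the treated libraries stood at 105, 123 and 104 CPM and their vehicle at 73.7, 68.8 and 70.7 CPM. That vehicle lies above every other vehicle library of day 3. Over 15 alternatives this rise ran from 0.56 to 0.97, so the sizes of the rises are not compared between the hormones. CCND3, cyclin D3, rose by 0.73 (SE 0.09, adjusted p = 1.58e-08) at dexamethasone 1 µM, by 0.37 (SE 0.09, adjusted p = 0.00334) at dexamethasone 0.01 µM and by 0.58 (SE 0.09, adjusted p = 4.43e-06) at hydrocortisone 10 µM.

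Over the same libraries the mean log2 CPM of the 39 genes stayed between 5.32 and 5.50, in all 43 of them. At dexamethasone 1 µM it was 5.38, 5.39 and 5.37, against 5.42, 5.49 and 5.50 in vehicle, so the groups do not overlap. A mean over many genes moves less than a single gene that responds, so its size is not compared with that of CCND1. Among the 39, the regulators E2F1 and CCNE2 (cyclin E2, which starts S phase) changed by 0.02 (SE 0.08) and -0.04 (SE 0.12) at this dose, with 95% intervals of -0.14 to 0.19 and -0.28 to 0.21. CCNE2 shares 1629 bases of exon with INTS8 on the opposite strand, and the strand setting of the counts is not known. The interval lay within 0.5 on either side of 0 for 37 of the 39 genes, POLE2 and CDCA7 being the exceptions, and for 38.1% of all genes, whose intervals also widen where counts are low. On day 6 CCND1 was still lower at dexamethasone 1 µM (-0.52, SE 0.09, adjusted p = 6.11e-05) and CDKN1A higher (0.84, SE 0.10, adjusted p = 2.56e-08).

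**Figure D4:**
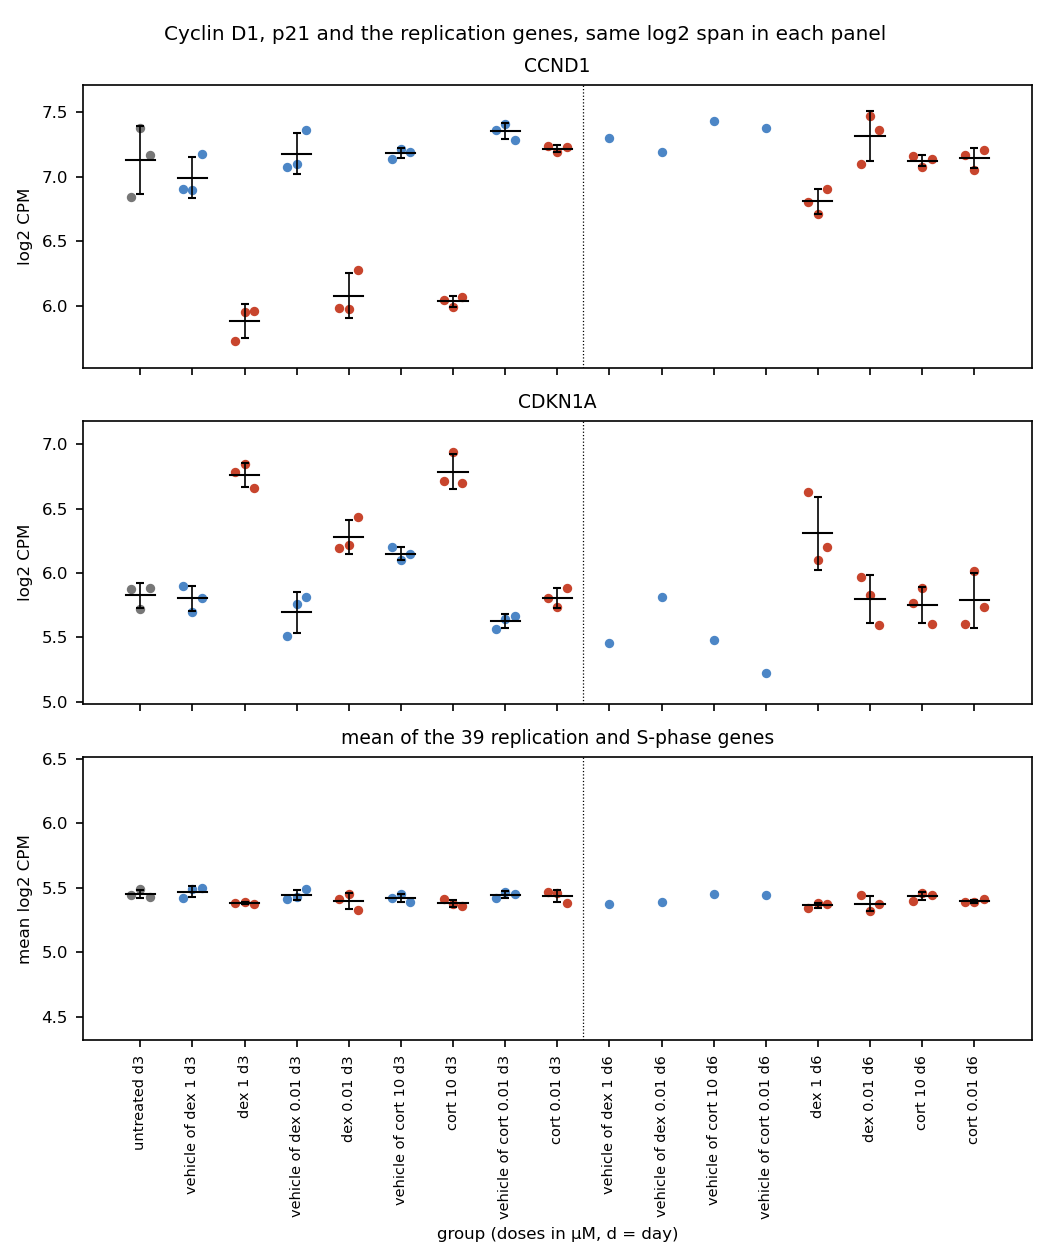
Log2 CPM of CCND1 and CDKN1A, and mean log2 CPM of the 39 replication and S-phase genes, in every library (points: grey untreated, blue vehicle, red hormone; bars: mean and SD of groups of 3), with the same log2 span in each panel. CCND1 drops and CDKN1A climbs at both doses of dexamethasone and at hydrocortisone 10 µM on day 3. The mean of the 39 genes lies between 5.32 and 5.50 in every library. At the higher dose of dexamethasone on day 3 this mean was 5.37 to 5.39, below the 5.42 to 5.50 of the matching vehicle without overlap. A mean over many genes moves less than a single gene that responds, so sizes are not compared between the panels.

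Other genes of these pathways, from lists of related genes, were counted in the same way. Of 60 further replication and S-phase genes 4 rose and 9 fell at dexamethasone 1 µM, 3 rose and 5 fell at dexamethasone 0.01 µM, and 2 rose and 1 fell at hydrocortisone 10 µM, with medians of -0.04, -0.01 and 0.02. Over all genes 22.6%, 14% and 13.1% were called in these comparisons, so at both doses of dexamethasone the counts do not set these genes apart. At hydrocortisone 10 µM the counts of 2 and 1 among the 60 are a smaller share than that of all genes. That difference was not tested. POLE, the catalytic subunit that POLE2 accompanies, rose by 0.57 (SE 0.11, adjusted p = 5.81e-05) at dexamethasone 1 µM, while the small subunit POLE4 fell by 0.58 (SE 0.13, adjusted p = 0.00043), so the subunits of polymerase epsilon moved in both directions. POLD2 of polymerase delta fell by 0.35 (SE 0.09, adjusted p = 0.00192).

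Of 29 G1 cyclins, kinases, inhibitors and E2F regulators in the table, 4 rose and 5 fell at dexamethasone 1 µM, 3 and 3 at dexamethasone 0.01 µM, and 4 and 3 at hydrocortisone 10 µM, where 22.6%, 14% and 13.1% of all genes were called. Of 30 G2/M genes 2 rose and none fell at dexamethasone 1 µM, none rose and 3 fell at dexamethasone 0.01 µM, and 4 rose and none fell at hydrocortisone 10 µM, against the same shares. TOP2A, the topoisomerase that untangles copied chromosomes, rose by 0.23 (SE 0.06, adjusted p = 0.00761) at dexamethasone 1 µM and by 0.30 (SE 0.06, adjusted p = 0.000869) at hydrocortisone 10 µM. AURKA, a mitotic kinase, fell by 0.25 (SE 0.06, adjusted p = 0.00307) at dexamethasone 0.01 µM. None of the genes of these 3 lists passed at hydrocortisone 0.01 µM.

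CDT1 and geminin proteins mark successive phases of the cycle. The ratio of their levels per kilobase lay between 0.481 and 0.854 in 41 libraries and above that in 2, replicate 2 of hydrocortisone 0.01 µM on day 6 at 1.12 and replicate 3 of dexamethasone 0.01 µM on day 3 at 1.4, both among the 7 with over 75% ribosomal RNA. In those 7 libraries the median of CDT1 was 30.5 CPM, against 25.4 CPM in the other 36, and that of GMNN 25.6 against 29.2 CPM. At dexamethasone 1 µM CDT1 changed by 0.07 (SE 0.15) and GMNN by 0.01 (SE 0.09), and neither passed in any of the 18 comparisons.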

How the data were processed

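Total RNA libraries were made with a stranded kit and read as paired ends, per the labels' protocols. The values are read counts per Ensembl gene deposited by the authors in 1 table of 43 libraries; the submitters' processing notes name STAR, featureCounts, Subread and GRCh38, and the strand setting is not given in the sources used here. Groups and replicate numbers came from the titles. All libraries entered 1 fit of edgeR 4.0.16 (R 4.3.3) with TMM scaling, 17 group coefficients and 26 residual degrees of freedom, after filterByExpr with a minimum count of 10. Quasi-likelihood p-values were adjusted over 16816 genes in each of 18 comparisons, with a threshold of 0.05. CPM are TMM-scaled. The single vehicle libraries of day 6 borrow their spread from the replicated groups. The script was tested on simulated data. Alternatives were DESeq2 1.42.0, RLE factors, no filter, no ribosomal RNA genes, other references, replicate blocks and left-out libraries; leaving out libraries over 75% ribosomal was chosen after seeing the data. Genes described by library are, for each comparison and direction, up to 4 past the threshold ranked by p, plus a set of named replication genes. Some values by library outside this rule (LIG1, MCM7, RFC3 and UHRF1 at dexamethasone 1 µM) were chosen after they were seen. The 39 genes and the other lists were chosen with earlier results of these data known. Gene positions are those of GENCODE v29 and promoters those of RefSeq. One marker result is not reported here.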

Additional observations from a re-analysis of the deposited data

Results flagged for a closer look

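GINS1 responded differently between doses of hydrocortisone (a log2 difference of 0.49 for 10 minus 0.01 µM on day 3) and between the hormones at 0.01 µM (0.52 for dexamethasone minus hydrocortisone), each past the threshold for the difference itself. Its effect also differed between day 6 and day 3, by -0.38 for dexamethasone 0.01 µM and by -0.35 for hydrocortisone 10 µM. For hydrocortisone 10 µM the effect differed between the days for UHRF1 as well, by 0.28, and for CDCA7, by 0.35.

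Single libraries stood apart from the other 3 among the 4 vehicle libraries of day 6 for CDC45, at 29 CPM in the vehicle of dexamethasone 1 µM, and for EXO1, at 50.3 CPM in the vehicle of hydrocortisone 0.01 µM. By Dixon's criterion about 1 in 20 groups is marked by chance, and all 39 genes were looked at.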

How the results depend on the processing

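The number of the 39 genes called at dexamethasone 1 µM on day 3, 8 in the analysis reported, was 5 with the replicate block and 4 against untreated medium. At dexamethasone 0.01 µM on day 3 the 4 calls became 1 without ribosomal RNA genes, with DESeq2, without libraries over 75% ribosomal, and in a fit of only the 6 libraries compared. At hydrocortisone 10 µM on day 3 the 1 call became 2 without ribosomal RNA genes and with DESeq2, 3 without libraries over 75% ribosomal, 9 against all vehicle groups and 7 against untreated medium, where TYMS turned to 0.14. At dexamethasone 1 µM on day 6 the 1 call became 2 without ribosomal RNA genes and without libraries over 75% ribosomal, and 0 against the vehicle library of its own dose. The cause of these shifts was not tested. Shares of all genes called are not set beside the counts of this section, nor beside those of left-out libraries above. The counts therefore show nothing particular to the 39 genes. Leaving out 1 library at a time gave 2 to 6 calls at dexamethasone 1 µM on day 3, 1 to 6 at dexamethasone 0.01 µM, 1 to 3 at hydrocortisone 10 µM, 1 to 2 for dexamethasone against hydrocortisone at 0.01 µM, 1 to 2 at dexamethasone 1 µM on day 6, 0 to 2 for washout from dexamethasone 0.01 µM and 0 to 3 for washout from hydrocortisone 10 µM. GINS1 kept its call in all 18 alternatives for the hydrocortisone doses and in all 18 for the hormones at 0.01 µM on day 3. None of these alternatives used another reference. Against untreated medium GINS1 was not called at dexamethasone 0.01 µM or hydrocortisone 10 µM on day 3. Replicate numbers were not taken to pair the libraries: the correlation of deviations between a hormone library and the vehicle library of its number ran from -0.34 to 0.20 over 9 pairs, with a median of -0.09, and between the days, for libraries of 1 treatment and number, from -0.29 to 0.36 over 12 pairs, with a median of 0.22 and 7 of 12 over 0.1, against a median of -0.01 for different numbers. The labels do not say that a number marks the same flask on both days. With a replicate block by flask the number called for washout stayed at 1 for dexamethasone 0.01 µM and at 3 for hydrocortisone 10 µM, where MCM7 passed in place of CDCA7 (0.32, adjusted p = 0.0704). The replicate block moved no other count by more than 1.5 times. For the 4 hormone groups of day 3 the median half-width of the unadjusted 95% interval over the 39 genes was 0.18 on the log2 scale, and some changes larger than that did not pass after adjustment.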
